A study of Mus musculus with 12 samples.

Results

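The AP-1 and BATF family was described here as 9 genes, Fos, Fosb, Fosl2, Jun, Junb, Jund, Batf, Batf3 and Atf3, chosen by their symbols among the 40840 gene symbols counted in each library. Of the 9, 8 had enough counts to be tested beside 13570 genes in all, and Batf3, at 0 to 3 counts in every library, did not.

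AP-1 is a dimer of basic leucine zipper (bZIP) proteins. FOS proteins cannot pair with themselves and bind DNA with a JUN partner, whereas JUN proteins pair with either family, and most FOS and JUN genes are immediate early genes, transcribed within minutes of T-cell receptor or growth factor signals through MAP kinases. BATF lacks a transactivation domain, pairs with JUN proteins and binds with IRF4 at composite elements, and it is known for its place in Th17, Tfh and Th2 differentiation. ATF3 is a stress-induced bZIP factor, and BATF3 is best known from cross-presenting dendritic cells.

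The cells were OTII cells, which are CD4+ T cells whose transgenic receptor recognises an ovalbumin peptide, and they were transferred into WT or Il6-/- recipients that were intranasally sensitized with high-endotoxin house dust mite extract (HDM LPS) and ovalbumin. Activated (CD44+) donor OTII cells were sorted on Day 3 or Day 5, giving 4 groups of 3 libraries, namely WT recipients on Day 3, Il6-/- recipients on Day 3, WT recipients on Day 5 and Il6-/- recipients on Day 5. The donor cells had the same genotype in all groups, so the comparison of genotypes is between hosts that could or could not make IL-6. The labels give the tissue as blood where the series text and the methods name the mediastinal lymph node (mLN), the series text adds that its days are counted from another start than those of the manuscript, and no source says whether a replicate was 1 mouse or a pool, so p-values measure only the spread between these samples, which may be technical.

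The libraries held 16125947 to 26111657 counts on genes. The 9 defining CD4 T-cell markers were above 3 counts in every group, and their summed level, in counts per 1000000 scaled counts (CPM), lay between 7619 and 9348 in Day 3 libraries and between 12452 and 14376 in Day 5 libraries. Summed markers of B cells were at 5.46 to 11.5 CPM over all libraries, those of myeloid and dendritic cells at 16.0 to 68.1 on Day 3 and 24.2 to 138 on Day 5, those of NK and CD8 T cells at 62.8 to 114, and those of lung epithelium at 0.494 to 13.2 on Day 3 and 2.65 to 22.9 on Day 5, with Clec9a at 0 in all 12 libraries and Itgax at 0 on Day 3. The share of reads assigned to genes was 60.2 to 62.2% on Day 3 and 52.5 to 56.7% on Day 5. The CD4 T-cell marker sum and that share thus separated the days, whereas the ranges of the other marker sums overlapped between days. The part of any of these in the day comparisons below was not tested. Fewer cells of a type and less RNA per cell cannot be told apart in such bulk libraries. Il6 itself was at 0 to 5 counts in every library, which checks nothing about the recipients.

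The 300 bases before the start of each gene's canonical transcript (GRCm39, GENCODE vM39) were read for all 9 members, and 6 of the windows are shown. Motifs further upstream were not searched, so a window without a match does not mean that the gene lacks the motif. Fos, Fosb, Jun and Junb are shown as genes that were higher on Day 5 in both hosts, Jund and Batf as genes that were not. Fosl2, which was also higher in both hosts, is not shown. Capitals mark a match to 1 of 5 motifs searched on both strands, which were the AP-1 site TGACTCA, the cAMP response element TGACGTCA, the CArG box bound by serum response factor, the STAT site TTCNNNGAA and the TATA box TATAAA. The first and second of these share the letters TGAC but no full match of one holds the other.
Fos: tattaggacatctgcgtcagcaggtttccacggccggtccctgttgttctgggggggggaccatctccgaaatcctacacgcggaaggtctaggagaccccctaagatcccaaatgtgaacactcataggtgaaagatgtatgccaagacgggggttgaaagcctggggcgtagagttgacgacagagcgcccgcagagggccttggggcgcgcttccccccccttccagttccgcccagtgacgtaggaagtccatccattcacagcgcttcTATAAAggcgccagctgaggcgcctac
Fosb: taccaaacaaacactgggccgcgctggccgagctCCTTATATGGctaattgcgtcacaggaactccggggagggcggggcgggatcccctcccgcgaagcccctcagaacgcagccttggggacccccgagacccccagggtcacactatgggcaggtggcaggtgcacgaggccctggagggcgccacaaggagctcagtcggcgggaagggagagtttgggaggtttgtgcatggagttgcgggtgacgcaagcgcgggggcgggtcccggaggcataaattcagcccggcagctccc
Jun: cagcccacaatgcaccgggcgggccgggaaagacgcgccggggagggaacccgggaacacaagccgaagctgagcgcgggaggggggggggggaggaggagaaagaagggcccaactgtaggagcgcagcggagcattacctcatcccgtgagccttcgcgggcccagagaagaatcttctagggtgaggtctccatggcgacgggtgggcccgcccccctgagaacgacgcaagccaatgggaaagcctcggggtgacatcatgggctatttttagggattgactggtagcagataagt
Junb: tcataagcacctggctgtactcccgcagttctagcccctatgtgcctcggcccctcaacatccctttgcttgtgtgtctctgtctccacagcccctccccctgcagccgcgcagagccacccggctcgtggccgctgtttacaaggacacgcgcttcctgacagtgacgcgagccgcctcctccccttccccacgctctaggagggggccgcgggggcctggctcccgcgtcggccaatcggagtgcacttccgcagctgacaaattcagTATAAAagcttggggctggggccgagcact
Jund: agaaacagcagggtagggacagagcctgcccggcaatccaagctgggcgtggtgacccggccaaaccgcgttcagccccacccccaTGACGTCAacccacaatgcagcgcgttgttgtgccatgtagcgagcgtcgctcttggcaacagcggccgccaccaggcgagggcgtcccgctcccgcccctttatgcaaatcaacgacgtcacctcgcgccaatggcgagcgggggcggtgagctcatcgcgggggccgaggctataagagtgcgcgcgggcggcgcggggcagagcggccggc
Batf: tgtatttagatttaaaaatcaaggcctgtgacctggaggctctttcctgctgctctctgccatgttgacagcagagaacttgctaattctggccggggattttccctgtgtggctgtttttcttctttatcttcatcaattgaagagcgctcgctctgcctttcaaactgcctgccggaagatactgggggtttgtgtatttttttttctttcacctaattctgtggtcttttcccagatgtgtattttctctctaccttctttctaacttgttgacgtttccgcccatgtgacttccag
The windows are chr12:85520358-85520657 on the plus strand for Fos, chr7:19043977-19044276 on the minus strand for Fosb, chr4:94940460-94940759 on the minus strand for Jun, chr8:85705348-85705647 on the minus strand for Junb, chr8:71151299-71151598 on the plus strand for Jund and chr12:85733123-85733422 on the plus strand for Batf. The canonical start of Junb, Batf3 and Atf3 lies downstream of the first base of the gene, so that their windows lie partly or wholly inside it. Of the 9 members' windows, 5 held a match. Fos and Junb each held a TATA box, 27 and 30 bases before the start at its first base. Of 19423 windows of the same length, each before the canonical start of a counted protein-coding gene, 12.7% held this motif. Fosb held a CArG box 266 bases before the start (1.69% of windows), Jund held TGACGTCA 214 bases before it (1.86%), and Batf3, not shown, held TTCCACGAA, a match to the STAT site (8.90%). Fosl2, Jun, Batf and Atf3 held none of the 5 in these windows, and TGACTCA, present in 4.74% of windows, was in none of the 9.

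Per kilobase of exon, a scale on which levels of different genes can be roughly compared, Batf and Junb were the most abundant members in all 4 groups. The exon length kept bases shared with other counted genes, although reads there go to neither gene. Values of Jun and Junb may therefore be too low, and close ranks such as those of Jun and Jund on Day 3 in WT recipients are uncertain. On Day 3 in WT recipients Batf stood at 137 ± 3.95 CPM per kb (SD, n = 3) and Junb at 125 ± 20.4, and their libraries overlapped. Jund (26.5 ± 17.3), Jun (22.7 ± 9.85) and Fos (12.02 ± 3.70) followed, each overlapping its neighbour. Atf3 (0.548 ± 0.125), Fosb (0.130 ± 0.0810), Fosl2 (0.0889 ± 0.00757) and Batf3 (0.0347 ± 0.0368) were far below them. Fos made up 98.2 ± 0.396% of the summed Fos, Fosb and Fosl2 level per kb. The order was the same in Il6-/- recipients on Day 3, where Batf (119 ± 0.283 CPM per kb) stood above every Junb library (96.4 ± 11.3) and Jund (22.1 ± 1.27) above every Jun library (10.3 ± 3.30), and only Jun and Fos (6.76 ± 1.66) overlapped.

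On Day 5 the order at the top differed. In WT recipients Junb stood at 422 ± 125 CPM per kb, above every Batf library (150 ± 3.69), and Fos (66.9 ± 18.4) ranked above Jun (44.4 ± 11.6) and Jund (37.7 ± 8.77), although the libraries of Fos and Jun, and those of Jun and Jund, overlapped. The same order held in Il6-/- recipients, with Junb at 377 ± 140, Batf at 126 ± 8.91, Fos at 61.2 ± 25.3, Jun at 43.7 ± 15.3 and Jund at 21.6 ± 2.62 CPM per kb. The ratio of Junb to Batf, both per kb, was 0.909 ± 0.149 on Day 3 and 2.81 ± 0.864 on Day 5 in WT recipients, and 0.808 ± 0.0925 and 2.98 ± 0.998 in Il6-/- recipients. Of the summed Jun, Junb and Jund level per kb, Junb made up 72.8 ± 9.64% on Day 3 and 83.0 ± 4.77% on Day 5 in WT recipients, and 74.8 ± 0.935% and 84.8 ± 2.10% in Il6-/- recipients.

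**Figure D1:**
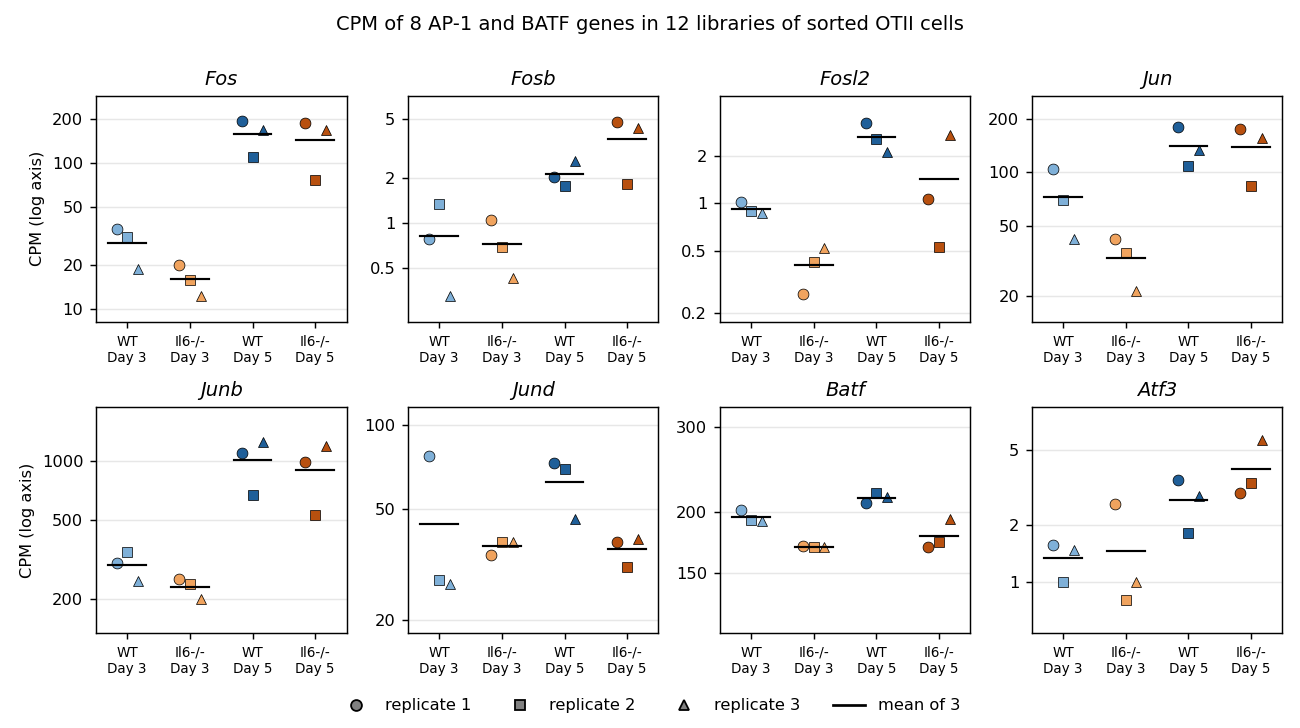
CPM (log axis, a separate range for each gene) of the 8 tested members in the 12 libraries, by recipient genotype and day. Each point is 1 library, its shape is the replicate number and the bar is the mean of 3. Fos and Junb sit higher in every Day 5 library than in any Day 3 library, while all 12 Batf libraries lie between 170 and 219 CPM.

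The comparison of days asks how the family differs between early and later priming in each host. In WT recipients 5 of the 8 tested members were higher on Day 5 and none was lower at an adjusted p under 0.05 (edgeR's quasi-likelihood test, Benjamini-Hochberg adjustment over all genes tested), where 29.5% of all genes tested were called higher. In OTII cells from Il6-/- recipients 6 of 8 were higher and none was lower, where 30.4% of all genes were called higher. The median log2 fold change over the 8 was 1.19 in WT and 1.89 in Il6-/- recipients, and that over all genes tested was 0.09 in each. The 3 WT and the 3 Il6-/- libraries of Day 5 lay above all those of Day 3 of the same host for 7 and 6 members, which 33.4% and 33.1% of all genes tested also did. The comparisons with all 12 libraries in 1 fit share their samples, so that the 4 pairwise comparisons are not independent of each other.

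Fos, the founding FOS gene, had the steepest rise. In WT recipients its level was 35.5, 31.0 and 18.6 CPM in replicates 1 to 3 on Day 3 and 194, 110 and 170 CPM on Day 5. From Il6-/- recipients it was 19.96, 15.8 and 12.1 CPM on Day 3 and 188, 76.1 and 169 CPM on Day 5. Every Day 5 library was above every Day 3 library. Fos rose 5.54-fold in WT recipients (log2 fold change 2.47, SE 0.31, adjusted p = 8.75e-06) and 9.06-fold in Il6-/- recipients (3.18, SE 0.33, adjusted p = 9.09e-07), and both rises kept their call without any single library.

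Junb, whose product antagonizes or replaces JUN in many dimers, was the most abundant member on Day 5. Its level in WT recipients was 304, 342 and 246 CPM on Day 3 and 1091, 673 and 1247 CPM on Day 5, and in Il6-/- recipients it was 253, 236 and 200 CPM on Day 3 and 981, 532 and 1183 CPM on Day 5. The groups of the 2 days did not overlap in either host. The rise was 3.37-fold in WT recipients (log2 fold change 1.75, SE 0.25, adjusted p = 2.77e-05) and 3.92-fold in Il6-/- recipients (1.97, SE 0.25, adjusted p = 7.68e-06). Junb shares 173 bases of its exons with Prdx2, a peroxiredoxin gene on the other strand that was at 268 to 348 CPM in these libraries, and reads in shared bases are given to neither gene by the counting used.

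Jun rose in both hosts as well, from a Day 3 level that was called lower in Il6-/- recipients. Jun kept that call in 8 of the 12 fits that left out a library. In WT recipients it was at 105, 70.1 and 42.1 CPM on Day 3 and 181, 109 and 135 CPM on Day 5. Its level in Il6-/- recipients was 42.0, 34.8 and 21.3 CPM on Day 3 and 176, 84.1 and 158 CPM on Day 5. The WT libraries of Day 3 spread over a wide range, and the highest of them nearly reached the lowest of Day 5. The rise was 1.95-fold in WT recipients (log2 fold change 0.96, SE 0.32, adjusted p = 0.0176) and 4.27-fold in Il6-/- recipients (2.09, SE 0.33, adjusted p = 6.27e-05). The WT call was lost without WT Day 3 replicate 3 (0.69, adjusted p = 0.0802) and without WT Day 5 replicate 1 (0.74, adjusted p = 0.0797). Junos, a noncoding gene antisense to 528 of Jun's 3189 exon bases, was at 0.235 to 1.45 CPM. Because the counting ignored strand, reads in these shared bases are given to neither gene.

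The minor FOS genes rose from very low levels. Fosb was at 0.780, 1.33 and 0.326 CPM on Day 3 and 2.04, 1.77 and 2.59 CPM on Day 5 in WT recipients, and at 1.06, 0.689 and 0.427 CPM on Day 3 and 4.76, 1.82 and 4.32 CPM on Day 5 in Il6-/- recipients. It rose 2.59-fold in WT recipients (log2 fold change 1.37, SE 0.49, adjusted p = 0.0275) and 5.02-fold in Il6-/- recipients (2.33, SE 0.50, adjusted p = 0.000954). The WT call did not hold without WT Day 3 replicate 1 (1.33, adjusted p = 0.0718), without WT Day 3 replicate 3 (1.02, adjusted p = 0.106) or without WT Day 5 replicate 3 (1.21, adjusted p = 0.0825), nor with the replicate number as a block across all 4 groups together with an offset for GC content (1.25, adjusted p = 0.05503). Fosl2, which encodes FRA2, rose 2.82-fold in WT recipients (1.49, SE 0.49, adjusted p = 0.0172) and 3.51-fold in Il6-/- recipients (1.81, SE 0.55, adjusted p = 0.00967), calls that were lost without WT Day 5 replicate 1 (1.32, adjusted p = 0.0589) and without Il6-/- Day 5 replicate 3 (0.96, adjusted p = 0.119), respectively. Day 3 Fosl2 rested on 5 to 11 counts per library in Il6-/- recipients and 16 to 26 in WT recipients. For Fosl2 the WT Day 3 libraries alone met the filter on low counts, whereas the Il6-/- Day 3 libraries alone did not. Day 3 Fosb rested on 6 to 27 counts per library in WT recipients and 9 to 20 in Il6-/- recipients. For Fosb the Day 3 libraries of neither host alone met that filter, whereas the Day 5 libraries of each host did.

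Atf3 was at 1.56, 0.989 and 1.47 CPM on Day 3 and 3.46, 1.82 and 2.87 CPM on Day 5 in WT recipients, without overlap. In Il6-/- recipients it was at 2.59, 0.796 and 0.995 CPM on Day 3 and 2.96, 3.34 and 5.67 CPM on Day 5, again without overlap. The rise passed the threshold in Il6-/- recipients (2.74-fold, log2 fold change 1.45, SE 0.44, adjusted p = 0.00975), although not without Il6-/- Day 5 replicate 3 (1.11, adjusted p = 0.0621). In WT recipients the log2 fold change was 1.01 (SE 0.44, 95% interval 0.08 to 1.95, adjusted p = 0.0611).

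Batf and Jund were the tested members without a called difference between days in either host. Batf was at 203, 193 and 193 CPM on Day 3 and 209, 219 and 215 CPM on Day 5 in WT recipients, a log2 fold change of 0.13 (95% interval -0.02 to 0.28, adjusted p = 0.126). In Il6-/- recipients it was at 170, 170 and 170 CPM on Day 3 and 170, 174 and 194 CPM on Day 5 (0.08, 95% interval -0.07 to 0.22, adjusted p = 0.366). Both intervals end below those of Fos and Junb, which begin at 1.80 and 1.22 in WT recipients and at 2.48 and 1.43 in Il6-/- recipients. The call depended on the fit, as Batf was called higher with upper-quartile scaling (0.33 and 0.30 in the 2 hosts), which raises the median of all genes to 0.29 and 0.32, and lower with an offset for gene length (-0.27 and -0.30). Jund, a JUN gene that is expressed more constantly than its relatives in many tissues, was at 77.5, 28.0 and 27.0 CPM on Day 3 and 73.0, 69.4 and 46.1 CPM on Day 5 in WT recipients (0.50, 95% interval -0.14 to 1.14, adjusted p = 0.169). Jund levels in Il6-/- recipients were 34.4, 38.0 and 38.2 CPM on Day 3 and 38.1, 31.1 and 39.1 CPM on Day 5 (-0.03, 95% interval -0.69 to 0.62, adjusted p = 0.936). WT Day 3 replicate 1 stood far above its group, and without it the WT difference was 1.19 with an adjusted p of 5.21e-05.

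**Figure D2:**
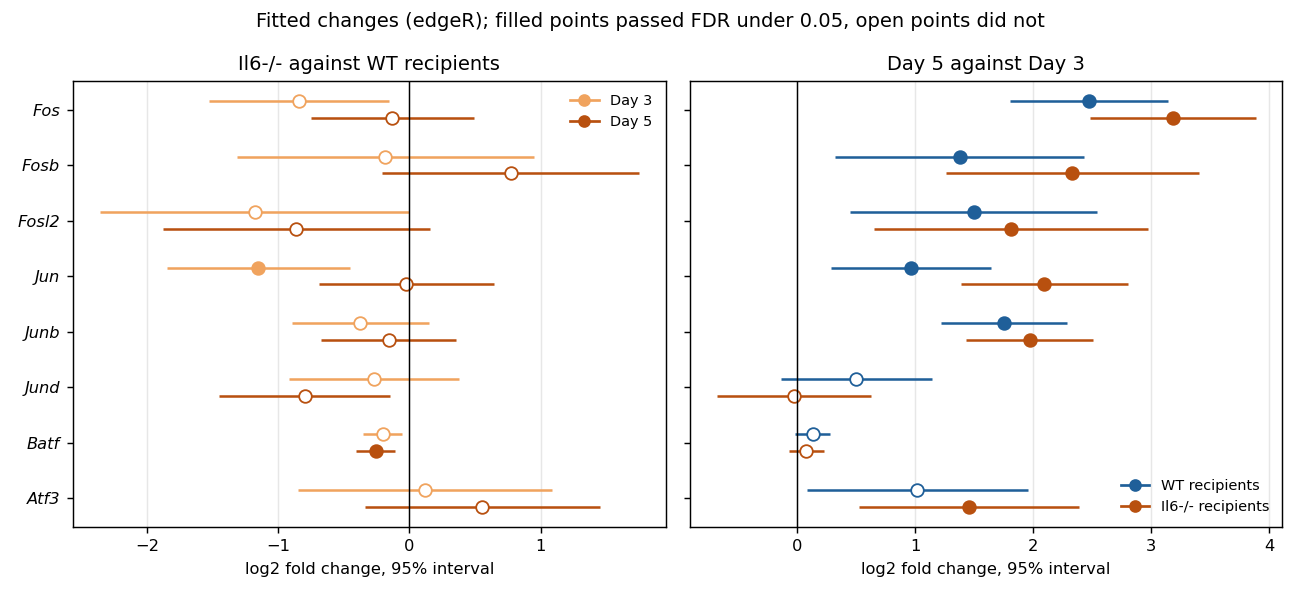
Fitted log2 fold changes (x axis) with 95% intervals for the 8 tested members, Il6-/- against WT recipients on each day on the left and Day 5 against Day 3 in each host on the right, from edgeR over all 12 libraries. Filled points passed an adjusted p under 0.05, which were Jun on Day 3 and Batf on Day 5 on the left, and 5 members in WT and 6 in Il6-/- recipients on the right.

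The comparison of recipients asks whether OTII cells primed without host IL-6 carried another level of these factors. On Day 3, 1 of the 8 tested members was lower in OTII cells from Il6-/- recipients and none was higher, where 13.7% of all genes tested were called in either direction and 6.19% were called lower. On Day 5, again 1 of 8 was lower, where 4.61% of all genes were called and 3.35% were called lower. The shares of members called, 1 of 8 on each day, rest on a single gene each. The median log2 fold change over the 8 was -0.32 on Day 3 and -0.14 on Day 5, and over all genes tested it was 0.01 on each day.

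The gene called on Day 3 was Jun, whose levels are given above. Its 3 Il6-/- libraries, at 21.3 to 42.0 CPM, lay below the 3 WT libraries, at 42.1 to 105 CPM, although the highest of the former and the lowest of the latter differed by less than 1 CPM. Jun was 2.22-fold lower (log2 fold change -1.15, SE 0.33, 95% interval -1.85 to -0.45, adjusted p = 0.0296). The call was lost without WT Day 3 replicate 1 (-0.78, adjusted p = 0.135), WT Day 3 replicate 2 (-1.17, adjusted p = 0.0717), Il6-/- Day 3 replicate 2 (-1.20, adjusted p = 0.0779) or Il6-/- Day 3 replicate 3 (-0.91, adjusted p = 0.120), while its direction remained in each of these fits. On Day 5 the log2 fold change of Jun was -0.02 (SE 0.31, 95% interval -0.69 to 0.64, adjusted p = 0.981).

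Fos and Fosl2 had Day 3 point estimates near that of Jun but did not pass in the fit over all 12 libraries without a block. The log2 fold change of Fos was -0.84 (SE 0.32, 95% interval -1.53 to -0.15, adjusted p = 0.102), and 1 Il6-/- library, at 19.96 CPM, was above the lowest WT library. Without Il6-/- Day 5 replicate 2, a library outside the comparison that shares the estimate of spread, it was -0.87 with an adjusted p of 0.0257. With the 6 Day 3 libraries fitted alone, which called 22.3% of all genes, Fos passed (-0.86, adjusted p = 0.0101), as did Junb (-0.40, adjusted p = 0.0158) and Batf (-0.23, adjusted p = 0.00779) beside Jun. Fos, Junb and Batf also passed with the replicate number as a block within each day (-0.81, -0.37 and -0.20, adjusted p = 0.000238, 0.00190 and 0.0341). That fit called 2658 of the 13570 genes tested on Day 3. Fosl2 was at 1.01, 0.890 and 0.869 CPM in WT and 0.264, 0.424 and 0.521 CPM in Il6-/- recipients, without overlap (-1.18, SE 0.55, adjusted p = 0.186). The log2 fold changes on Day 5 were -0.13 for Fos (adjusted p = 0.859) and -0.86 for Fosl2 (adjusted p = 0.345), whose Day 5 libraries were at 3.21, 2.55 and 2.12 CPM in WT and 1.06, 0.527 and 2.71 CPM in Il6-/- recipients. The Day 5 value of Fosl2 was -0.44 without Il6-/- Day 5 replicate 2 and -1.71 without Il6-/- Day 5 replicate 3, and passed in neither fit.

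Batf was the gene called on Day 5, and its difference was small on both days. In OTII cells from Il6-/- recipients it was 1.196-fold lower on Day 5 (log2 fold change -0.26, SE 0.07, 95% interval -0.41 to -0.11, adjusted p = 0.0478), and on Day 3 the log2 fold change was -0.20 (SE 0.07, 95% interval -0.35 to -0.06, adjusted p = 0.0664). On each day all 3 Il6-/- libraries lay below all 3 WT libraries, as did the Day 3 libraries of 15.7% and the Day 5 libraries of 11% of all genes tested. The spread of Batf within groups was 0.0571 on the log2 CPM scale, smaller than that of all but 1.88% of genes tested, where the median gene was at 0.198 and the other 7 tested members at 0.410 to 0.655. The Day 5 call was at the edge of the threshold and held in only 1 of the 12 fits that left out a library, at adjusted p values of 0.0364 to 0.213. With the replicate number as a block within each day the Day 5 call of Batf was kept (-0.26, adjusted p = 0.0153), in a fit that called 11.7% of all genes on Day 5. It was lost with that number as a block across all 4 groups (-0.26, adjusted p = 0.0589), with RLE size factors (-0.23, adjusted p = 0.0768) and with offsets for GC content (-0.24, adjusted p = 0.0575) or gene length (-0.20, adjusted p = 0.143).

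Jund also had a lower level in Il6-/- recipients on Day 5, a difference that did not pass in the fit over all 12 libraries. Its 3 Il6-/- libraries, at 31.1 to 39.1 CPM, lay below the 3 WT libraries, at 46.1 to 73.0 CPM (log2 fold change -0.80, SE 0.31, 95% interval -1.45 to -0.15, adjusted p = 0.152). Without WT Day 3 replicate 1, the library in which Jund stood apart, the value was the same and the adjusted p was 0.00613. Jund also passed when the 6 Day 5 libraries were fitted alone (-0.81, adjusted p = 0.0285), a fit that called 2.76% of all genes and in which Batf did not pass (-0.27, adjusted p = 0.164). On Day 3 the log2 fold change was -0.27 (adjusted p = 0.638), and it turned to 0.43 (adjusted p = 0.128) without that library.

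Junb, Fosb and Atf3 gave no called difference between recipients on either day in the fit over all 12 libraries without a block. In some other fits Junb passed on Day 3, as with the 6 Day 3 libraries alone (-0.40, adjusted p = 0.0158). Junb had log2 fold changes of -0.37 on Day 3 (95% interval -0.90 to 0.15, adjusted p = 0.364) and -0.16 on Day 5 (95% interval -0.68 to 0.36, adjusted p = 0.781). Fosb had -0.18 (95% interval -1.31 to 0.95, adjusted p = 0.872) and 0.77 (95% interval -0.21 to 1.75, adjusted p = 0.383), and Atf3 had 0.12 (95% interval -0.85 to 1.08, adjusted p = 0.909) and 0.56 (95% interval -0.34 to 1.45, adjusted p = 0.512). At their depth, changes of 2-fold lie within the intervals of Fosb and Atf3 on both days. Batf3 was at 0 counts in 8 of the 12 libraries and at most at 3 in the others, so no comparison of it could be made.

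Whether the recipient difference itself changed between days was tested as an interaction, the Day 3 difference minus the Day 5 difference. None of the 8 members passed in edgeR, DESeq2 or limma-voom, where edgeR called 4.92% of all genes tested, and 1 member had an unadjusted p under 0.05. That member was Jun, at -1.13 (SE 0.45, 95% interval -2.09 to -0.17, adjusted p = 0.173). With the replicate number as a block within each day, 2 members passed, Jun (-1.05, adjusted p = 0.000905) and Fos (-0.63, adjusted p = 0.016), in a fit that called 11.5% of all genes. Without WT Day 3 replicate 1, Jund passed (1.22, adjusted p = 0.00875).

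The members other than Batf spread within groups more than most genes, at the 74.4 to 89.2 percentile of all genes tested. After subtraction of the group mean of log2 CPM, Fos followed Jun (Pearson's r 0.943 over 12 libraries), Junb (0.887) and Fosb (0.855), and Jun followed Junb (0.722), a description only, as the points share libraries and depth. The same replicate number was lowest in both hosts. Replicate 3 was lowest on Day 3 in both WT and Il6-/- recipients for 5 of the 8 tested members (Fos, Fosb, Jun, Junb and Batf) against 12.5% of all genes tested, and replicate 2 was lowest on Day 5 in both for 4 of 8 (Fos, Fosb, Jun and Junb) against 12.4% of all genes. These libraries were noticed after their values were seen. Among the 25 other immediate early genes, 9 were lowest in both Day 3 replicate 3 libraries and 13 in both Day 5 replicate 2 libraries. Ier2, Dusp1, Klf6, Cd69, Ppp1r15a and Nfkbia were among them in both cases. On Day 3, 5 of the 25 (Egr1, Egr2, Egr3, Zfp36 and Zfp36l1) were instead lowest in both replicate 1 libraries, against 15.1% of all genes tested. The Day 5 replicate 2 libraries also had the highest share of reads on genes of their groups, 55.8% in WT and 56.7% in Il6-/- recipients, and the part of this in the levels was not tested.

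**Figure D3:**
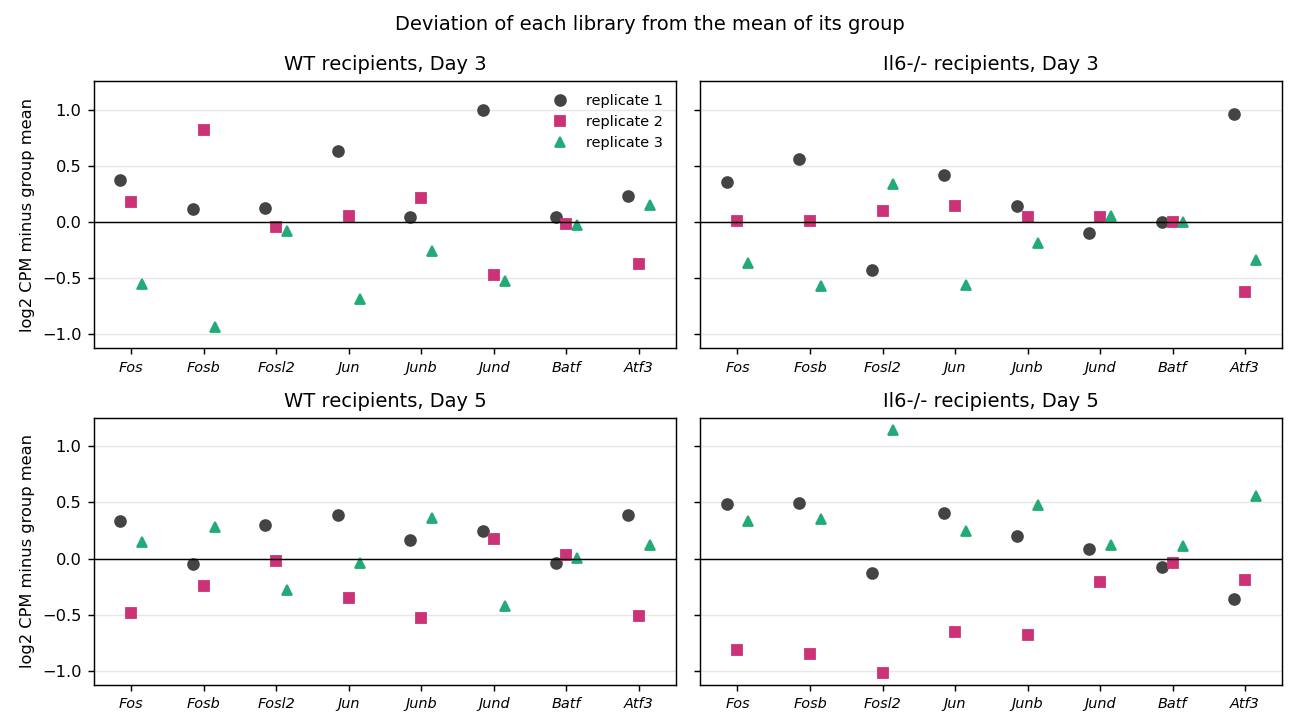
Deviation of each library from the mean of its group on the log2 CPM scale (y axis) for the 8 tested members, with 1 panel for each group and the shape and colour giving the replicate number. Replicate 3 lies lowest for Fos, Fosb, Jun and Junb in both Day 3 panels and replicate 2 in both Day 5 panels, while Batf stays near 0 in all 4.

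Most of the other immediate early genes were also higher on Day 5. Of the 25 listed, all tested, 20 were higher on Day 5 in WT recipients and none was lower (median log2 fold change 1.24), and 21 were higher and 1 was lower in Il6-/- recipients (1.41), where 29.5% and 30.4% of all genes tested were called higher. Egr2 and Egr3, zinc finger factors downstream of the T-cell receptor, were the leading examples. Egr3 rose from 10.9 ± 1.78 to 54.2 ± 2.89 CPM in WT recipients (log2 fold change 2.32, adjusted p = 1.60e-08) and from 9.87 ± 1.73 to 37.8 ± 2.15 CPM in Il6-/- recipients (1.94, adjusted p = 3.25e-08). Egr2 rose from 40.4 ± 5.68 to 114 ± 11.6 CPM (1.499) and from 23.5 ± 2.95 to 92.7 ± 6.26 CPM (1.98). Between recipients 7.52% of all genes tested were called higher and 6.19% lower on Day 3, and 1.27% and 3.35% on Day 5. Among the 25 immediate early genes 1 was higher and 4 were lower on Day 3, and 1 was higher and 5 were lower on Day 5. By the rule for naming genes these included Nr4a3, an orphan nuclear receptor gene that was higher in Il6-/- recipients on Day 3 (4.27 ± 0.786 against 8.59 ± 2.40 CPM, 1.00, adjusted p = 0.00715). On Day 5 they were Btg1, an antiproliferative gene that was lower (805 ± 222 against 338 ± 119 CPM, -1.25, adjusted p = 0.00516), and the heat shock gene Hspa1a, which was higher but ranged over 232, 32.4 and 186 CPM in the Il6-/- libraries (13.6 ± 9.02 CPM in WT, adjusted p = 0.0483). Hspa1a has a near-identical copy, Hspa1b, between which the counting may have split reads.

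Genes of the kinase pathway that feeds AP-1 were called between days at shares near those of all genes. Of 23 MAPK and SRF pathway genes, 7 were higher and 5 lower on Day 5 in WT recipients, and 7 were higher and 6 lower in Il6-/- recipients (median log2 fold changes 0.14 and 0.08). Of all genes tested, 29.5% were called higher and 27.1% lower in WT recipients, and 30.4% and 30.1% in Il6-/- recipients. Dusp6, a feedback phosphatase of ERK, rose from 28.0 ± 2.05 to 111 ± 13.6 CPM in WT recipients (1.99, adjusted p = 1.34e-08) and from 32.3 ± 2.29 to 93.1 ± 7.94 CPM in Il6-/- recipients (1.53, adjusted p = 2.34e-08). Map3k5, the kinase ASK1, rose in both hosts (1.11 and 1.32), whereas Map2k2, which encodes MEK2, fell in Il6-/- recipients (-1.08). Between recipients 1 of the 23 was higher on Day 3 and 4 were lower on Day 5, none of them by 2-fold. Of all genes tested, 7.52% were called higher on Day 3 and 3.35% were called lower on Day 5.

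Among 26 other bZIP genes, 23 were tested. In OTII cells from Il6-/- recipients 4 were lower and none was higher on Day 3, and none passed on Day 5 in either direction. Of all genes tested, 7.52% were called higher and 6.19% lower on Day 3, and 1.27% and 3.35% on Day 5. With day, 6 of the bZIP genes were higher and 4 lower in WT recipients, and 10 were higher and 2 lower in Il6-/- recipients. All genes tested were called higher at 29.5% and lower at 27.1% in WT recipients, and at 30.4% and 30.1% in Il6-/- recipients. Ddit3, which encodes the stress factor CHOP, rose from 9.69 ± 1.89 to 24.4 ± 3.85 CPM in WT (1.33) and from 9.38 ± 1.49 to 21.9 ± 4.78 CPM in Il6-/- recipients (1.22). Bach2, a repressor that competes with AP-1 for its sites, rose from 28.2 ± 5.20 to 63.5 ± 13.3 CPM in WT recipients (1.17). Its level in Il6-/- recipients went from 24.9, 18.8 and 20.8 to 55.2, 28.2 and 39.0 CPM. Maf, which drives Il21 and Tfh genes, rose from 31.3 ± 10.3 to 104 ± 23.8 CPM in Il6-/- recipients (1.72). In WT recipients Maf went from 55.1, 62.6 and 66.3 to 91.7, 116 and 124 CPM. Of the 5 listed BATF partners and NFAT genes, Irf8, a partner of BATF and BATF3, was higher in Il6-/- recipients on Day 3 (52.4 ± 2.97 against 120 ± 19.6 CPM, 1.19, adjusted p = 5.89e-05), and 1 was higher and 1 lower on Day 5.

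Genes known as T-cell targets of AP-1 and BATF were called in both directions between recipients. Of 20 listed and 16 tested, 4 were higher and 6 lower in OTII cells from Il6-/- recipients on Day 3, and 1 was higher and 2 lower on Day 5 (median log2 fold changes -0.07 and -0.05). Of all genes tested, 7.52% were called higher and 6.19% lower on Day 3, and 1.27% and 3.35% on Day 5. Among those lower on Day 3 were the costimulator Icos (618 ± 25.3 against 301 ± 28.7 CPM, -1.04, adjusted p = 9.57e-06) and Bcl6, the transcriptional repressor that defines Tfh cells (38.5 ± 2.4997 against 17.3 ± 1.80 CPM, -1.15, adjusted p = 0.000384). Higher were Fasl (1.12 ± 0.687 against 2.75 ± 0.745 CPM, 1.28, adjusted p = 0.0211) and Il10 (0.116 ± 0.0719 against 0.569 ± 0.230 CPM, adjusted p = 0.0324), the latter on few counts. On Day 5 Il22 was at 0 counts in the 3 Il6-/- libraries (0.846 ± 0.785 CPM in WT, adjusted p = 0.0179). Il22 was also at 0 counts in the 3 Il6-/- libraries of Day 3, against 40, 41 and 42 counts in WT recipients. It met the filter on low counts through WT libraries only, so its difference between recipients cannot be weighed by the test. With day, Fasl rose from 1.12 ± 0.687 to 21.8 ± 3.68 CPM in WT recipients (4.27), and Bcl6 rose in both hosts (1.24 and 2.35). Icos rose (1.14) and Prdm1 fell (-1.73) in Il6-/- recipients. Il17f fell in WT recipients (-2.42), from 25, 28 and 27 counts on Day 3. Only through those 3 libraries did Il17f meet the filter on low counts, so its fall cannot be weighed by the test. Fasl also went from 3.27, 3.08 and 1.90 to 15.8, 22.1 and 19.1 CPM in Il6-/- recipients. In WT recipients Prdm1 went from 2.69, 2.08 and 2.01 to 0.611, 1.09 and 0.470 CPM, and Icos from 589, 635 and 629 to 661, 684 and 824 CPM.

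In a list of 11 genes of the IL-6 and STAT3 response and of neighbouring cytokine signals, 2 were higher and 4 lower in OTII cells from Il6-/- recipients on Day 3, and 1 was higher and 4 were lower on Day 5. Their named members on Day 3 were Socs3, the STAT3 feedback inhibitor (-2.34), the receptor gene Il23r (-4.19, from 0.137 ± 0.112 CPM in Il6-/- recipients) and Bcl3 (-1.06), which were lower, and Cish (1.71) and Il2ra (1.59), which were higher and are best known as genes driven by IL-2 through STAT5. On Day 5 Cish was higher (1.58), Bcl3 was lower (-1.24) and Il23r was at 0, 0 and 0.0521 CPM in the Il6-/- libraries. With day, Il2ra fell in both hosts (-3.15 and -3.68). Il6st rose (1.05) and Il23r fell (-2.12) in WT recipients, and Il6ra (1.01) and Socs3 (1.95) rose in Il6-/- recipients. Il23r met the filter on low counts only with its WT Day 3 libraries (91, 58 and 25 counts). Neither its fall with day nor its differences between recipients can therefore be weighed by these tests. Each gene is named for the host in which it met the naming rule. Il6st also went from 172, 157 and 149 to 409, 357 and 284 CPM in Il6-/- recipients. In WT recipients Il6ra went from 87.7, 99.3 and 86.6 to 185, 182 and 168 CPM, and Socs3 from 13.3, 15.8 and 19.9 to 22.1, 25.1 and 20.3 CPM.

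**Figure D4:**
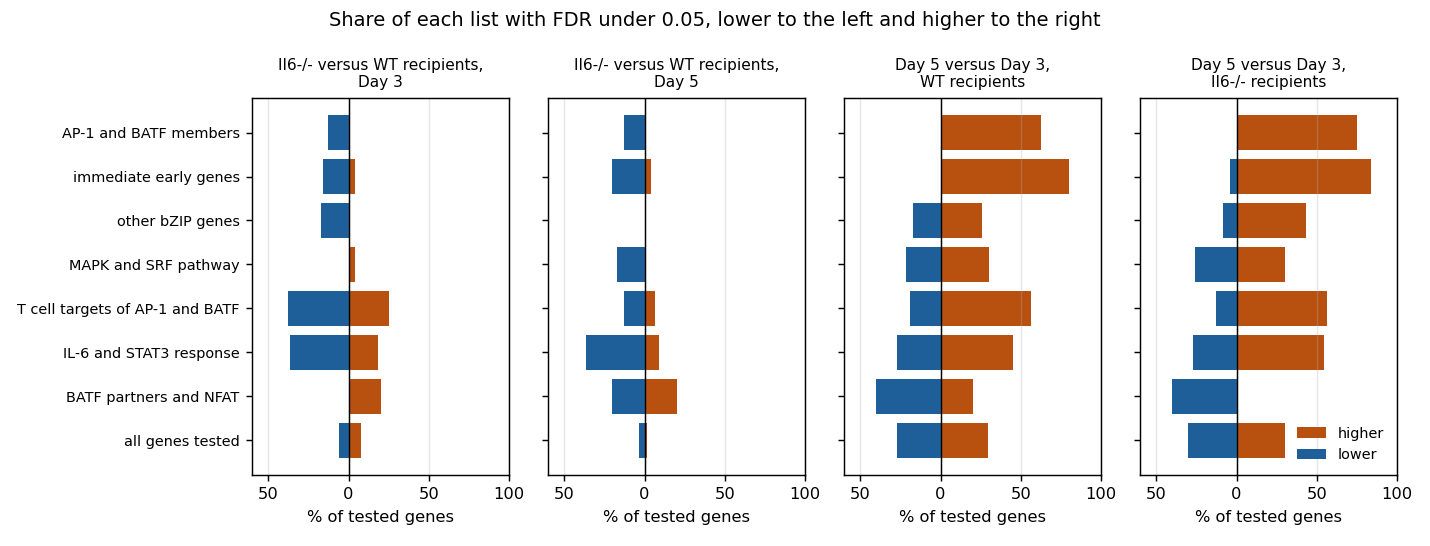
Percent of the tested genes in each list (x axis) that were lower (blue, to the left) or higher (orange, to the right) at an adjusted p under 0.05 in the 4 pairwise comparisons. The bottom bar gives all 13570 genes tested, and the AP-1 and BATF members (8 tested) and the 25 immediate early genes have the longest bars to the right in both comparisons of days.

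For each tested member the gene with the most similar pattern of log2 CPM over the 12 libraries was sought among the 13562 other tested genes, by Pearson's r, as a description of points that share groups and depth. Junb was closest to the immediate early gene Ier2 (0.992), and Fos to Letm2 (0.990). Jund was closest to Zxdc (0.963), Jun to 4933412E12Rik (0.959), Fosb to LOC118567375 (0.950), Fosl2 to Rgcc (0.949), Batf to Mark4 (0.929) and Atf3 to Wnt3 (0.926). For Fos 1245 genes and for Junb 1047 genes had an r over 0.9, whereas Batf had 7 and Jund and Atf3 had 9 each.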

How the data were processed

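RNA of sorted OTII cells was sequenced in 12 libraries (3 per group, from the ultra-low input polyA protocol with single-end reads of 50 bases). The deposited gene counts were made by the authors with Trim Galore 0.4.4, STAR 2.5.2a on GRCm39 and HTSeq 0.6.1p1 without strand, per the methods and the submitters' processing notes. The authors also deposited log2 CPM values, which were not used here.

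Members, lists and tests were chosen with earlier results of these data known. Counts of all genes passing edgeR's filterByExpr (13570) were scaled by TMM (factors 0.944 to 1.06) and fitted in 1 quasi-likelihood model with 1 coefficient per group (edgeR 4.0.16, R 4.3.3). p-values were adjusted by Benjamini-Hochberg over all genes tested in a comparison, and a call is an adjusted p under 0.05. CPM are counts per 1000000 of the scaled library size, log2 CPM adds a prior count of 2, and SE is the fold change over the square root of F. Fosb, Fosl2 and Atf3 rest on 5 to 109 counts per library, which limits their precision. On simulated counts for the Day 3 comparison of recipients (13233 genes) the test recovered 40.3% of changes of 1.5-fold, 74.6% of 2-fold and 84.8% of 4-fold. The changed genes were drawn from all genes tested. The members other than Batf spread more than most genes, so these shares may be too high for them.

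The named genes were the members, per list the called genes changed at least 2-fold (up to 3 a direction between recipients and 2 between days, by p), 1 most similar gene per member, and genes whose exons overlap a member. Some genes this rule picked are not reported here, though the list counts include them.

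Replicate numbers are shared by all groups. Over all genes tested, same-numbered WT and Il6-/- libraries deviated together on Day 5 (r 0.243, 0.206 and 0.129 for replicates 1 to 3). On Day 3 they did so far less (0.033, 0.060 and 0.032). For 5 of the 8 tested members, however, replicate 3 was lowest in both hosts on Day 3. The block within each day is therefore given beside the Day 3 calls it changes, the Day 5 call of Batf and the interaction. Alternatives were other scalings, filters, DESeq2 1.42.0, limma-voom (limma 3.58.1), blocks, GC and length offsets, single days or hosts, and each library left out. Of 40840 symbols, 79.4% matched 1 GENCODE gene.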

Additional observations from a re-analysis of the deposited data

How the results depend on the processing

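Of 40 member results, the 12 fits that each left out 1 library changed the call or direction in 46 of 480 cases, and the other settings in 49 of 496. The count of members called between recipients on Day 3 was 1 and ranged from 0 to 3 without 1 library. It was 2 with upper-quartile scaling, with no scaling and with DESeq2, 3 with no filter, and 4 with the replicate block within each day or with the 6 libraries of that day alone, which added Fos, Junb and Batf to Jun (-0.81, -0.37 and -0.20 with the block, adjusted p = 0.000238, 0.00190 and 0.0341). These fits called 2658 and 2738 genes in all on Day 3, against 1861. On Day 5 the count was 1 and ranged from 0 to 1 without 1 library. It was 0 with RLE size factors, no scaling, the replicate block across all 4 groups with or without the GC offset, the GC offset or the length offset, and 0 when a 2-fold change was also required. With that day alone and with no filter it was still 1, but the member was Jund in place of Batf. The replicate block within each day changed no member's call on Day 5. Between days the count in WT recipients was 5, from 3 to 6 without 1 library, 8 with upper-quartile scaling and 4 with the replicate block across all 4 groups and the GC offset, which lost Fosb, and in Il6-/- recipients it was 6, from 4 to 6. For the interaction it was 0, from 0 to 1 without 1 library, 3 with no filter and 2 with the replicate block within each day. With no filter the prior degrees of freedom of the fit were infinite (7.004 with the filter), so that single genes had no spread of their own and small p-values for variable genes such as Fos and Jun are not comparable.

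Directions of differences that had not passed turned in these cases. Jun on Day 5 between recipients was 0.021 with no scaling. Jund between days in Il6-/- recipients was 0.20 with upper-quartile scaling and 0.12 with none. Batf between days was -0.0096 in WT and -0.10 in Il6-/- recipients with the GC offset, -0.0099 and -0.11 with the replicate block and GC offset, and -0.27 and -0.30 with the length offset, where it was called lower (adjusted p = 0.00507 and 0.00239), and its interaction was -0.045 with no scaling. Atf3 on Day 3 between recipients was -0.066 with limma-voom. The cause was not tested. Without 1 library, differences between recipients on Day 5 ranged from -0.36 to 0.20 for Fos, from -0.23 to 0.26 for Jun and from -0.41 to 0.13 for Junb. On Day 3 they ranged from -0.55 to 0.34 for Fosb, from -0.52 to 0.43 for Jund and from -0.58 to 0.41 for Atf3. The difference of Jund between days in Il6-/- recipients ranged from -0.094 to 0.079, and interactions ranged from -0.77 to 0.53 for Fosl2, from -0.54 to 0.034 for Junb and from -0.030 to 0.11 for Batf.

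All genes called between recipients on Day 5 numbered 626, from 225 to 1169 without 1 library, 1592 with the replicate block within each day, 1127 with DESeq2, 1397 with no filter and 359 with that day alone. For the interaction they numbered 668, from 235 to 943 without 1 library, 1564 with that block, 1136 with DESeq2 and 1300 with no filter. Upper-quartile scaling moved the share of calls that were higher on Day 5 from 52.1% to 66.5% in WT and from 50.2% to 65.0% in Il6-/- recipients, and of interaction calls from 63.5% to 52.8%. With no scaling the share of calls that were higher in Il6-/- recipients moved from 54.9% to 39.3% on Day 3 and from 27.5% to 40.8% on Day 5, and that of interaction calls to 35.2%.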
